A study of Mus musculus with 10 samples.

Results

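Cholesterol synthesis and sterol regulation were examined gene by gene in retinal ganglion cells (RGCs), the neurons whose axons form the optic nerve. The gene group holds 29 of the 34254 genes counted in every library, chosen by symbol for their place in the pathway. It comprises 8 enzymes of the mevalonate arm, 11 enzymes from squalene to cholesterol, 5 sensors and regulators, and 5 genes of sterol transport and turnover. The list does not hold every enzyme of the pathway.

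RGCs were profiled by 10X Chromium scRNA-seq, which counts unique molecular identifiers (UMIs) per gene and cell. They came from wild-type mice of the strain 129S1/SvImJ aged 12 weeks (P84) and labelled as of both sexes, whose optic nerve was either uninjured or had been crushed 2 weeks earlier (optic nerve crush, ONC). Retinas were pooled by 10 per batch, macrophages (in the paper, amacrine cells as well) were depleted, RGCs were enriched by immunopanning on the surface protein Thy1, and 6000 cells were loaded per batch. The 6 uninjured libraries held 98 to 651 cells each and the 4 injured libraries 273 to 527 cells each. The labels do not say that the libraries came from separate animals, so p-values measure the spread between these samples, part of which may be technical.

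Depth differed between the conditions. Total UMIs per library ranged from 2839693 to 23180399 in uninjured and from 4698799 to 8860536 in injured RGCs, and the library medians ranged from 20437 to 34337 UMIs per uninjured cell and from 11257 to 14695 UMIs per injured cell. Levels are therefore given as CPM, in which the UMIs of a gene are summed over the cells of a library and set relative to a common library total, scaled with trimmed mean of M values (TMM) factors. UMIs of Malat1, a nuclear noncoding RNA, made up 1.72% to 4.88% of each uninjured library and 6.09% to 8.01% of each injured library. Ribosomal protein genes made up 3.02% to 4.02% and 4.70% to 5.83%.

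Several libraries stood apart from the rest or resembled each other. Injured 3 and injured 4 shared 421 cell barcodes, whereas no other pair shared more than 1, and the difference between them was smaller than sampling noise (median chi-square over noise 0.954). Their mean was used as 1 sample, which left 6 uninjured and 3 injured samples. Some neighbors were close to each other, with a chi-square over noise of 1.75 for uninjured 1 and 2, 1.81 for uninjured 3 and 4, 1.44 for uninjured 5 and 6, and 2.11 for injured 1 and 2, while every remaining pair reached at least 3.46. Xist, the noncoding RNA of the inactive X chromosome, was detected in 62.1% of cells in injured 1 and 67.4% in injured 2, whereas no other library exceeded 0.569%. By this measure cells from females are nearly absent from the uninjured libraries and from injured 3 and 4, although the labels give both sexes, and the mix of the sexes differs between the conditions. The reporter mCherry was found in 86.0% and 84.3% of cells in injured 3 and 4, in 7.99% and 15.0% in injured 1 and 2, and in no uninjured cell. The paper used mCherry vectors as controls in eyes with ONC, and the labels mention no injection for these samples. Whether the injured retinas had also received a vector is therefore not known, and each difference between the conditions may include an effect of it. Every cell of every library had UMIs of at least 3 of the 9 RGC markers. The paper took cells as RGCs by their joint expression of Rbpms, Slc17a6, Sncg and Tubb3, all among these 9. This result was thus largely set by that selection and is no separate check of identity.

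Cholesterol is built from acetyl-CoA through mevalonate, which is converted to isoprenoid diphosphates, and farnesyl diphosphate is then joined to squalene and cyclized to sterols. When sterols are scarce in the endoplasmic reticulum, SCAP escorts the SREBP transcription factors to the Golgi, where they are cleaved and released to activate synthesis genes, whereas INSIG proteins hold SCAP back when sterols are plentiful. Neurons of the central nervous system obtain cholesterol from their own synthesis and from glia, and they remove it through membrane exporters and by hydroxylation.

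The cholesterol pathway was broadly lower in injured RGCs. The paper states that most RGCs die by 2 weeks after ONC, so the injured cells are survivors. Falls and rises here are differences between the conditions. Whether they arose within cells or through which cells survived was not tested. Of the 29 genes, 23 (79.3%) passed an adjusted p of 0.05 in edgeR's quasi-likelihood test, compared with 44.0% of all 14234 genes tested. A total of 21 genes (72.4%) were lower after injury, compared with 22.7% of all genes, and 17 (58.6%) were lower by at least 1 on the log2 scale, compared with 13.7% of all genes. Insig2 and Abca1 alone (6.90% of the group) were higher, against 21.3% of all genes. The injured level of Abca1 decided that it was tested. The samples of the conditions did not overlap for 22 genes (75.9%), 20 with the injured samples below and 2 above, compared with 43.0% of all genes. The median log2 fold change was −1.41 over the group and −0.03 over all genes. When the libraries that resemble each other were merged into 3 uninjured and 2 injured units, 17 genes were lower and 2 higher, against 13.9% and 13.2% of all genes tested in that setting. The counts were 21 and 2 in cells thinned to 8000 UMIs each, with shallower cells left out (21.0% and 19.7% of all genes). They were 17 and 2 among cells whose Malat1 share was 3 to 5% (15.6% and 17.3%), and 20 and 2 among cells without Xist (20.5% and 20.02%). Cells of injured 1 and 2 without an Xist UMI may still come from females, so the last setting may not equalize the sexes.

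**Figure D1:**
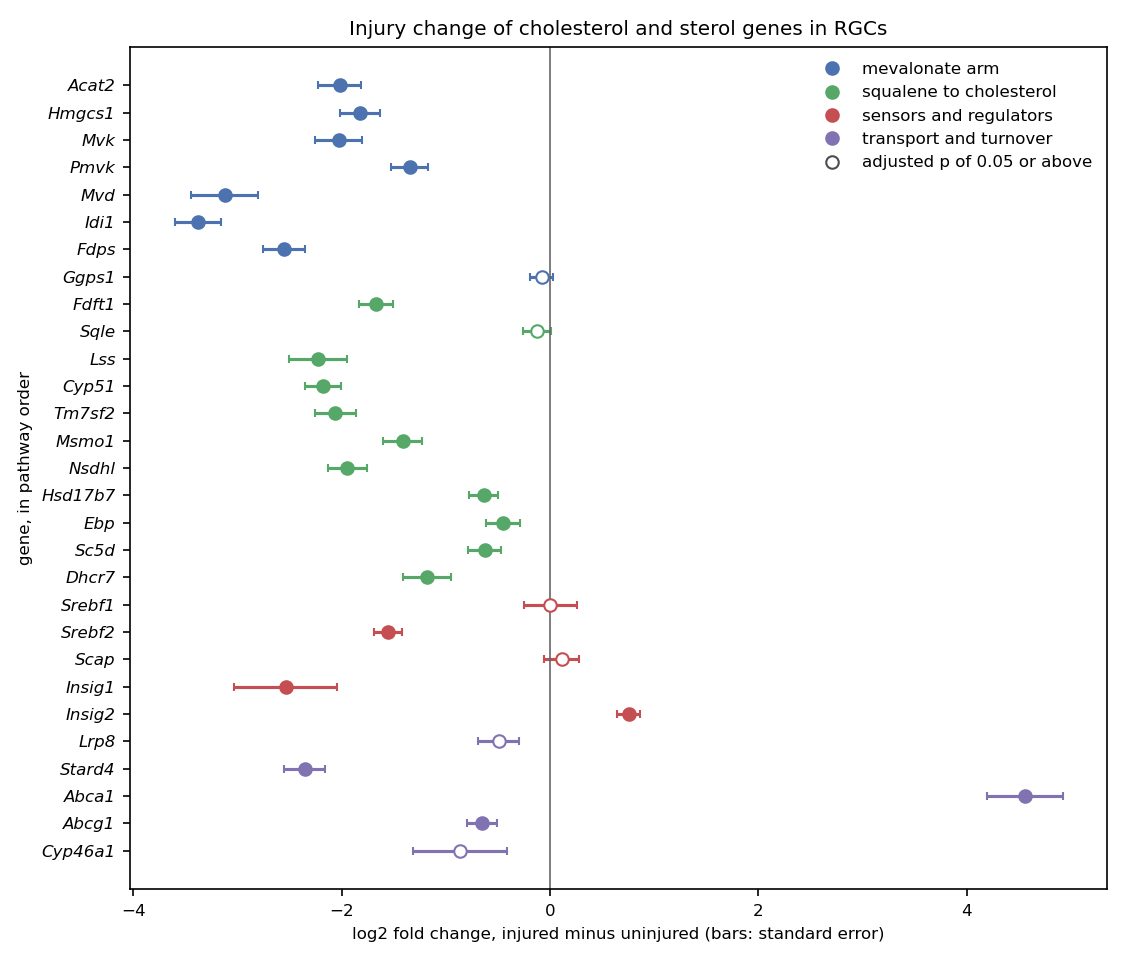
Log2 fold change of each of the 29 genes in pathway order (injured minus uninjured, 3 against 6 samples), with bars for the standard error, colors for the role and open circles for an adjusted p of 0.05 or above. Most enzymes lie to the left of 0 down to −3.38 for Idi1, Ggps1 and Sqle lie near 0, and Insig2 (0.75) and Abca1 (4.55) lie to the right.

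In the mevalonate arm, which runs from acetyl-CoA to the isoprenoid diphosphates, 7 of 8 genes were lower, each by at least 1 on the log2 scale. Among all genes, 22.7% were lower and 13.7% were lower by at least 1. The median log2 fold change of the arm was −2.03. Summed over its 8 genes, the arm was at 1107 ± 147 CPM (SD, n = 6) in uninjured and 322 ± 16.0 CPM (SD, n = 3) in injured samples, 29.1% of the uninjured level. These sums are a description without a test. For every gene below whose samples did not overlap, an exact permutation test (two-sided, on log2 CPM) gave p = 0.0238, the smallest value that 84 arrangements of the samples allow. This value follows from the lack of overlap and adds nothing to it. The test also takes the samples as separate, although some libraries resemble each other, so the value may be too small.

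Acat2, which joins acetyl-CoA units in the cytosol, ranged from 34.7 to 54.8 CPM in uninjured samples with a median of 45.7, and it was at 11.2, 12.1 and 9.94 CPM in the injured samples (injured 1, injured 2, and injured 3 and 4 averaged, in this order throughout). All 3 injured samples lay below the lowest uninjured sample. Its log2 fold change was −2.02 (SE 0.20, edgeR adjusted p = 1.10e-05). Acat2 has a close paralog, Acat3, which matches it with 97.7% identity over 1477 bases but held 32 UMIs in all samples against 2421 of Acat2. Hmgcs1, the cytosolic synthase that forms hydroxymethylglutaryl-CoA, ranged from 299 to 420.0 CPM with a median of 320.4 in uninjured samples and was at 79.3, 79.0 and 122 CPM after injury. The averaged sample of injured 3 and 4 was the highest of the injured samples, and it was still far below every uninjured one. Hmgcs1 thus had a log2 fold change of −1.82 (SE 0.19, edgeR adjusted p = 1.58e-05). A stretch of 396 bases of Hmgcs1 is also found in Baz1a, which held 238 UMIs against 19703 of Hmgcs1.

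The kinases and the decarboxylase that carry mevalonate to isopentenyl diphosphate fell as well. Mvk, mevalonate kinase, was at 29.6 to 50.8 CPM in uninjured and 8.33 to 11.5 CPM in injured samples, a log2 fold change of −2.03 (SE 0.23, edgeR adjusted p = 2.27e-05). Pmvk, which adds the next phosphate, was at 111 to 169 and 45.1 to 57.6 CPM, a log2 fold change of −1.35 (SE 0.18, edgeR adjusted p = 8.35e-05), the smallest fall among the 7 genes of the arm that fell. Mvd, the decarboxylase, ranged from 18.4 to 42.3 CPM with a median of 31.2 in uninjured samples and was at 4.03, 3.59 and 2.69 CPM in the injured samples. Even the lowest uninjured sample was several times above the highest injured one. Mvd fell by 3.12 on the log2 scale (SE 0.32, edgeR adjusted p = 1.21e-05), and it rests on 16 to 23 UMIs per injured sample.

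Idi1 had the largest fall of the 29 genes. This isomerase converts isopentenyl diphosphate to dimethylallyl diphosphate, the primer of isoprenoid chains, and the annotation places the gene (ENSMUSG00000058258.17) on the forward strand of chr13:8935537-8942487 in GRCm39. Idi1 ranged from 115 to 186 CPM with a median of 171 in uninjured samples and was at 15.2, 13.5 and 16.4 CPM in injured samples. The injured samples lay close together and far below all 6 uninjured ones. It fell by 3.38 on the log2 scale (SE 0.22, edgeR adjusted p = 4.18e-07), to a level 10.4 times lower. Part of its transcript, 684 bases, is identical in the processed pseudogene Idi1-ps1, and 681 bases match Idi1-ps2 with 97.7% identity. Neither pseudogene is among the counted genes, so how reads shared with them were assigned is not known, and the level of Idi1 is uncertain to that extent.

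Fdps, the synthase of farnesyl diphosphate, ranged from 219 to 331 CPM with a median of 265 in uninjured samples and was at 42.5, 53.2 and 43.5 CPM after injury. No injured sample came near the uninjured range. Its log2 fold change was −2.55 (SE 0.20, edgeR adjusted p = 1.40e-06). Fdps has 4 processed pseudogenes of at least 96.1% identity that were not counted, which leaves its level uncertain in the same way. Ggps1, which extends farnesyl diphosphate to the geranylgeranyl diphosphate used for protein prenylation and so leads away from sterols, was the exception of the arm. It was at 87.3 to 104 CPM in uninjured and 85.3 to 94.5 CPM in injured samples, which overlap, with a log2 fold change of −0.08 (SE 0.11, edgeR adjusted p = 0.580). Ggps1 too has an uncounted processed pseudogene, of 97.2% identity over 903 bases.

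The stretches upstream of 3 genes of this arm are shown because their genes fell together and because sterol-responsive promoters carry known motifs. The sequences are the 250 bases before the RefSeq start in the build GRCm38.p6, on the forward strand of chr13:119690101-119690350 for Hmgcs1, chr5:114444019-114444268 for Mvk and chr13:8885356-8885605 for Idi1. Capitals mark matches, on either strand, of the sterol response element core TCACNCCAC or its shorter form TCACNCC, which overlap, of the GC box GGGCGG bound by Sp1, of the CCAAT box bound by NF-Y, and of the E-box CACGTG.
Hmgcs1: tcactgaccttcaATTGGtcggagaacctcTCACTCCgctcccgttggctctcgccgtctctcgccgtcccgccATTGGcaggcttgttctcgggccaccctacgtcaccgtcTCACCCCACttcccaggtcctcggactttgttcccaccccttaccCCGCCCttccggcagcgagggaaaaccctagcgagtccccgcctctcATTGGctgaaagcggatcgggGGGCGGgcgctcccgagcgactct
Mvk: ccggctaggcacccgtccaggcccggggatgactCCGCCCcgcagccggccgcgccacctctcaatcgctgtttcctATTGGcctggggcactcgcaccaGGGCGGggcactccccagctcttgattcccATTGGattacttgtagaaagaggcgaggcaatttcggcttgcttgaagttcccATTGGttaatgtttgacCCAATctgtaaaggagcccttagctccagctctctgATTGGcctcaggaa
Idi1: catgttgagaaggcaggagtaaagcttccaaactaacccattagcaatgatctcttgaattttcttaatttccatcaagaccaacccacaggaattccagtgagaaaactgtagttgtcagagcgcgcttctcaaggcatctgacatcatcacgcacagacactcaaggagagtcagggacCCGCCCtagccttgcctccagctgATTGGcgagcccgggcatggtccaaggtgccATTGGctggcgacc
The core element was matched in Hmgcs1, 137 bases before the start, and not in these windows of Mvk and Idi1. Mvk held 5 matches of the CCAAT box, Hmgcs1 3 and Idi1 2 in the stretches shown. A match is a description of the letters, not a measured binding site.

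Among the 24 of 29 genes matched to 34 RefSeq promoters (250 bases before to 50 bases after the start), the core element TCACNCCAC was found in 1 promoter (2.94%), compared with 1.24% of all 32851 promoters. The shorter form TCACNCC was found in 7 promoters (20.6%, against 15.6%) of Acat2, Hmgcs1, Msmo1, Srebf2, Insig2 and Lrp8. The GC box was found in 25 promoters (73.5%, against 35.7%) of 21 genes and the CCAAT box in 21 promoters (61.8%, against 37.4%) of 20 genes. The E-box was found in 7 promoters (20.6%, against 7.15%) of Hsd17b7, Sc5d, Dhcr7, Scap, Insig1 and Abca1. No test was made of these shares, and promoters of the same gene can overlap. Fdps, Fdft1, Sqle, Stard4 and Abcg1 were not matched to a promoter.

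**Figure D2:**
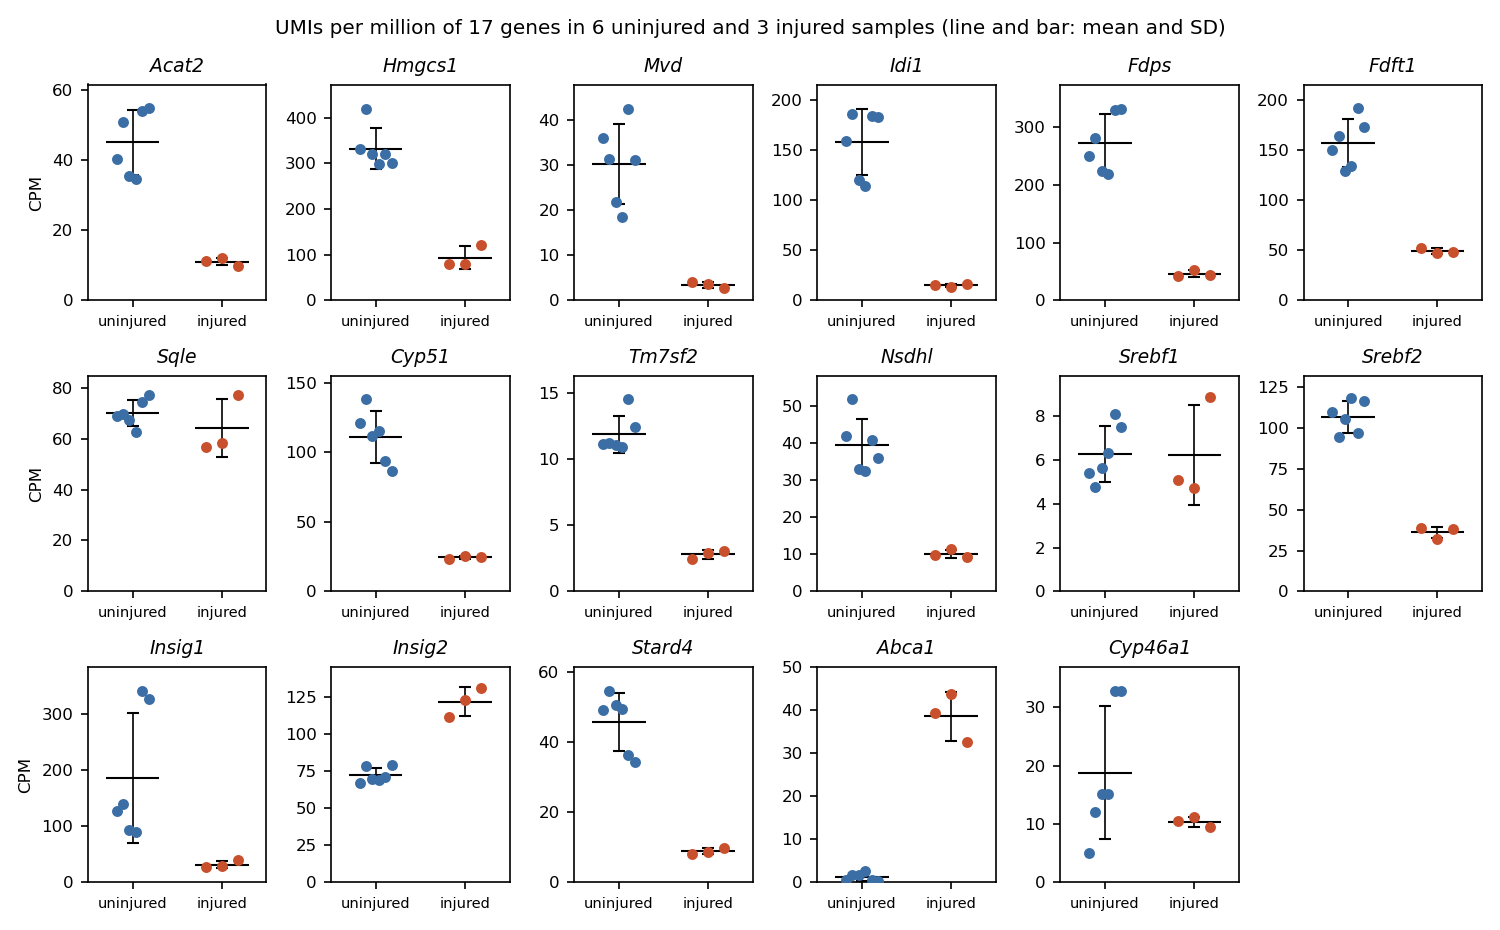
CPM of 17 genes in each of the 6 uninjured and 3 injured samples, with each sample as a point and the mean and SD as a line and bar, on axes that start at 0. Injured samples lie below the uninjured range for the enzymes other than Sqle, above it for Insig2 and Abca1, and within or across it for Sqle, Srebf1 and Cyp46a1.

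From squalene to cholesterol, 10 of 11 enzymes were lower, against 22.7% of all genes. Of these enzymes, 7 were lower by at least 1 on the log2 scale, against 13.7% of all genes. The median log2 fold change of the 11 was −1.41. The summed level of these enzymes was 697 ± 66.9 CPM (SD, n = 6) in uninjured and 296 ± 13.6 CPM (SD, n = 3) in injured samples, 42.4% of the uninjured level.

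Fdft1, squalene synthase, commits farnesyl diphosphate to sterols. It ranged from 129 to 192 CPM with a median of 157 in uninjured samples and was at 52.7, 46.9 and 48.2 CPM in injured samples. The 3 injured samples were alike and all below the uninjured range. Its log2 fold change was −1.67 (SE 0.16, edgeR adjusted p = 6.86e-06). A processed pseudogene that matches 1249 bases of Fdft1 with 97.4% identity was not counted, so its level is uncertain in the same way as that of Idi1. The next enzyme along the pathway behaved differently.

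Sqle, squalene epoxidase (ENSMUSG00000022351.16, chr15:59186869-59203043 in GRCm39), ranged from 62.7 to 77.3 CPM with a median of 69.1 in uninjured samples and was at 56.6, 58.4 and 77.1 CPM in the injured samples. Injured 1 and 2 lay below every uninjured sample, whereas the averaged sample of injured 3 and 4 lay at the top of the uninjured range. The log2 fold change was −0.12 (SE 0.13, edgeR adjusted p = 0.480), and the exact permutation test gave p = 0.286 (n = 6 and 3). In all 29 alternatives Sqle stayed short of the threshold, and its value ranged from −0.41 in cells with 3 to 5% Malat1 to 0.01 in libraries 1 to 4 of each condition with the replicate number as a block, with −0.26 when injured 3 and 4 were left out.

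Lss, which closes squalene epoxide to lanosterol, was at 18.4 to 38.05 CPM in uninjured and 4.72 to 7.25 CPM in injured samples, a log2 fold change of −2.23 (SE 0.27, edgeR adjusted p = 4.99e-05). Cyp51, the demethylase that acts on lanosterol, ranged from 86.3 to 138 CPM with a median of 114 in uninjured samples and was at 23.5, 25.6 and 24.4 CPM after injury. Its injured samples differed from each other by less than the uninjured ones did, and none reached the uninjured range. Cyp51 fell by 2.18 on the log2 scale (SE 0.17, edgeR adjusted p = 1.55e-06). Tm7sf2, a sterol reductase of the next step, ranged from 10.9 to 14.5 CPM with a median of 11.2 and was at 2.45, 2.92 and 3.09 CPM in the injured samples. This low level, 13 to 23 UMIs per injured sample, still separated the conditions in every sample. Its log2 fold change was −2.06 (SE 0.20, edgeR adjusted p = 6.77e-06). Tm7sf2 overlaps Vps51 on the same strand by 532 bases, and Vps51 had a log2 fold change of −0.47 (edgeR adjusted p = 0.164).

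Msmo1, the methylsterol monooxygenase, was at 110.2 to 175 CPM in uninjured and 48.1 to 56.8 CPM in injured samples, a log2 fold change of −1.41 (SE 0.19, edgeR adjusted p = 7.90e-05). Nsdhl, the X-linked dehydrogenase that works with it, ranged from 32.4 to 51.9 CPM with a median of 38.5 and was at 9.81, 11.5 and 9.27 CPM after injury. All injured samples were below the lowest uninjured one, in injured 1 and 2 with many Xist-positive cells and in injured 3 and 4 with few. Nsdhl fell by 1.95 on the log2 scale (SE 0.19, edgeR adjusted p = 7.08e-06).

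Hsd17b7, Ebp and Sc5d had the smallest falls among the 10 enzymes that fell. Hsd17b7, a ketosteroid reductase that acts with Msmo1 and Nsdhl in removing methyl groups, was at 15.1 to 18.2 and 10.1 to 11.5 CPM, a log2 fold change of −0.64 (SE 0.14, edgeR adjusted p = 0.00298). This call was lost when similar libraries were merged, at a log2 fold change of −0.63 (SE 0.22, edgeR adjusted p = 0.0615). It was also lost in cells with 3 to 5% Malat1 (edgeR adjusted p = 0.102) and in cells without Xist (0.110). Ebp, the sterol isomerase, was at 30.6 to 39.2 and 21.2 to 32.6 CPM, a log2 fold change of −0.45 (SE 0.17, edgeR adjusted p = 0.0454). Injured 2 reached the uninjured range of Ebp, the exact permutation p was 0.0952, and the call was lost in 12 of 29 settings, so it is a weak one. These include the merging of similar libraries, where the log2 fold change was −0.53 (SE 0.21, edgeR adjusted p = 0.0971). They also include the omission of any 1 uninjured library (edgeR adjusted p = 0.0509 to 0.0865) or of injured 1 (0.195). Sc5d, the sterol desaturase, was at 48.2 to 70.8 and 37.7 to 40.8 CPM, a log2 fold change of −0.63 (SE 0.15, edgeR adjusted p = 0.00602). This call was lost when similar libraries were merged (log2 fold change −0.64, SE 0.22, edgeR adjusted p = 0.0628) and in cells with 3 to 5% Malat1 (edgeR adjusted p = 0.105). Dhcr7, a reductase at the end of the pathway, was at 20.7 to 36.8 and 9.63 to 13.4 CPM, a log2 fold change of −1.18 (SE 0.23, edgeR adjusted p = 0.00136).

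Several genes of the group overlap a coding gene on the opposite strand, and the paper names Cell Ranger with default settings, which count reads of the sense strand, without stating the strand itself. The partners of genes that fell were Tcp1 for Acat2 (log2 fold change 0.38), Ctsb for Fdft1 (1.59), Akap9 for Cyp51 (−0.0005), Nim1k for Hmgcs1 (−2.30), Cetn2 for Nsdhl (−0.99) and Shisa8 for Srebf2 (−0.72). Among genes short of the threshold, Washc5 lies opposite Sqle (0.44), Arid4b opposite Ggps1 (0.63), Rai1 opposite Srebf1 (−0.24) and Ptpn23 opposite Scap (1.37). Reads shared by such partners were not examined here, and the overlaps range from 53 bases for Ptpn23 to 7895 bases for Akap9.

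The 19 enzymes were also counted together in single cells. To compare cells of different depth, each cell was thinned to 8000 UMIs, which left out 29 of 1683 uninjured and 233 of 1609 injured cells that were shallower. The median cell held 12 to 16 UMIs of the 19 enzymes across the uninjured libraries and 4 or 5 across the injured libraries. The lower quartile of every uninjured library, 9 or more, lay above the upper quartile of every injured library, 7 or less. At least 9 such UMIs, the lowest of the uninjured lower quartiles, were held by 5.98% to 11.5% of the cells of an injured library. No uninjured cell lacked them, compared with 0.797% to 3.91% of injured cells. The quartiles place most cells of each injured library below most cells of each uninjured one.

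**Figure D3:**
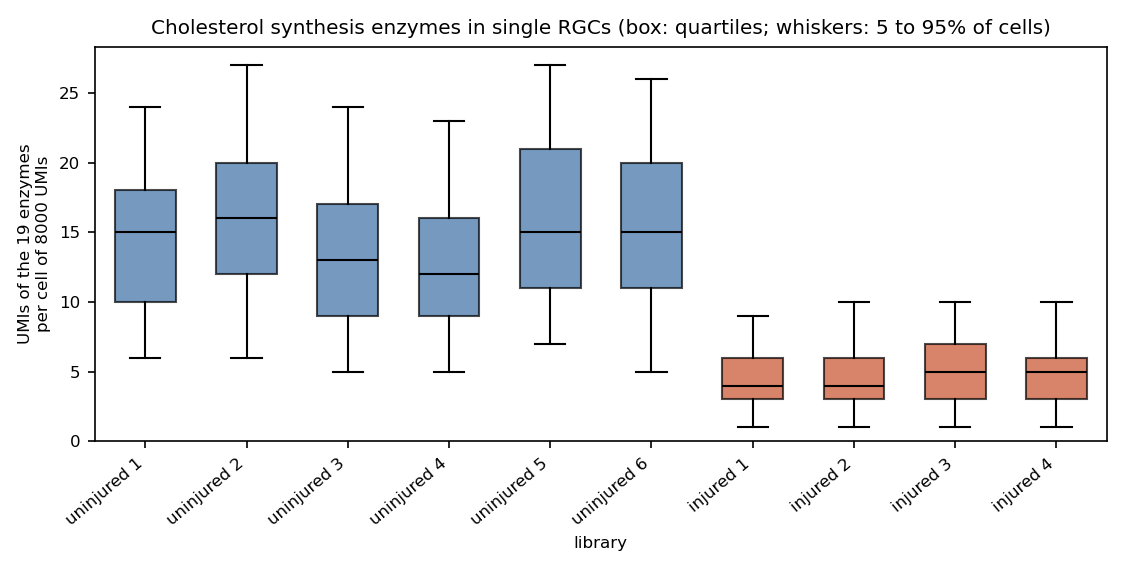
UMIs of the 19 synthesis enzymes per cell in each of the 10 libraries, after thinning each cell to 8000 UMIs, with boxes for the quartiles, a line for the median and whiskers from 5 to 95% of cells. Library medians are 12 to 16 UMIs in uninjured and 4 or 5 UMIs in injured RGCs, and no injured box reaches an uninjured one.

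The sensors and regulators did not move as a block: of 5 genes, Srebf2 and Insig1 were lower and Insig2 was higher, and Srebf1 and Scap did not pass the threshold. For comparison, 22.7% of all genes were lower and 21.3% higher. Srebf2 (ENSMUSG00000022463.10, chr15:82031382-82093201 in GRCm39) encodes SREBP2, the main activator of cholesterol synthesis genes. It ranged from 94.2 to 118 CPM with a median of 107 in uninjured samples and was at 38.5, 32.3 and 37.9 CPM in injured samples. Every injured sample lay far below the uninjured range. This was a log2 fold change of −1.56 (SE 0.13, edgeR adjusted p = 2.86e-06). Srebf2 overlaps the uncounted gene Gm49502 on the same strand by 2110 bases, and reads shared with it were not examined. Srebf1, which encodes the SREBP1 forms with a larger part in fatty acid synthesis, ranged from 4.77 to 8.09 CPM with a median of 5.97 in uninjured samples and was at 5.08, 4.72 and 8.86 CPM after injury. Injured 2 lay just below the uninjured range, the averaged sample of injured 3 and 4 just above it, and injured 1 within it. Its log2 fold change was 0.00 (SE 0.25, edgeR adjusted p = 0.993, exact permutation p = 0.833), and its sign turned in 8 of 19 alternatives, other scalings among them, and in 4 of 10 leave-one-out settings, so no direction is given. Scap, the escort protein of both SREBPs, was at 14.3 to 21.4 and 17.1 to 25.9 CPM, which overlap, with a log2 fold change of 0.11 (SE 0.17, edgeR adjusted p = 0.619).

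The INSIG genes, whose proteins retain SCAP in the endoplasmic reticulum, moved in opposite directions. Insig1 (ENSMUSG00000045294.13, chr5:28276315-28283668 in GRCm39), a known target of SREBPs, ranged from 89.9 to 339 CPM with a median of 134 in uninjured samples and was at 26.6, 29.6 and 39.2 CPM in injured samples. Uninjured 5 and 6 stood far above the other uninjured samples, and all injured samples lay below the lowest of them. The log2 fold change was −2.54 (SE 0.50, edgeR adjusted p = 0.00145). Against the pairs of similar uninjured libraries taken separately, the difference in mean log2 CPM was −2.08 for uninjured 1 and 2, −1.54 for uninjured 3 and 4, and −3.40 for uninjured 5 and 6. Leaving out uninjured 5 and 6 gave a log2 fold change of −1.80 (SE 0.19, edgeR adjusted p = 1.87e-05), a setting chosen after these values were seen.

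Insig2 (ENSMUSG00000003721.16, chr1:121181760-121260400 in GRCm39) ranged from 67.0 to 78.8 CPM with a median of 70.2 in uninjured samples and was at 112, 123 and 131 CPM in the injured samples. All 3 injured samples lay above the highest uninjured sample. Insig2 rose by 0.75 on the log2 scale (SE 0.11, edgeR adjusted p = 1.90e-04), and it lay between 0.56 and 0.82 in the alternative settings. Insig2 overlaps the uncounted genes Gm69424 and Gm38283 on the same strand, by 17414 and 695 bases. How reads shared with them were assigned is not known, and the level of Insig2 is uncertain to that extent. In each of the 3 injured samples, Srebf2 and Insig1 were thus below and Insig2 above the uninjured range.

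The stretches upstream of Srebf2 and Insig1 are shown because both genes fell with the enzymes. They are the 250 bases before the RefSeq start in GRCm38.p6 on the forward strand of chr15:82147019-82147268 for Srebf2 and of chr5:28071162-28071411 for Insig1, with the same motifs in capitals.
Srebf2: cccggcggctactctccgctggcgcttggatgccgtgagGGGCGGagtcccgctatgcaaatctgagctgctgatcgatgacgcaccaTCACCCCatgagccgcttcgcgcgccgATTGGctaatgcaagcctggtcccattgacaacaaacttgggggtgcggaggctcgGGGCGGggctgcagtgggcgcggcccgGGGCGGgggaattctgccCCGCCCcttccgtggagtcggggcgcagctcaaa
Insig1: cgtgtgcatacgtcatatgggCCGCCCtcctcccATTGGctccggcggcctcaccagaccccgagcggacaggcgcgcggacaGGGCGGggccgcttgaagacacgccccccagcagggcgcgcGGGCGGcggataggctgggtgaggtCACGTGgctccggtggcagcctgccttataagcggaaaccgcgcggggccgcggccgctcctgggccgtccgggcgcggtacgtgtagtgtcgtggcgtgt
Srebf2 held the shorter sterol element and Insig1 did not, whereas Insig1 held an E-box and Srebf2 did not, and both held GC boxes and a CCAAT box. The core element was not matched in either window.

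Of the 5 genes of sterol transport and turnover, 2 were lower and 1 was higher, with a median log2 fold change of −0.66. Among all genes, 22.7% were lower and 21.3% higher, and 5 genes are too few to set against these shares. Stard4, a soluble carrier that moves sterols between membranes, ranged from 34.4 to 54.7 CPM with a median of 49.4 in uninjured samples and was at 8.23, 8.53 and 9.94 CPM after injury. The injured samples were close to each other and all below the uninjured range. Stard4 fell by 2.35 on the log2 scale (SE 0.20, edgeR adjusted p = 2.31e-06). Abcg1, a sterol exporter of the ABC family, was at 18.9 to 25.003 and 12.4 to 15.2 CPM, a log2 fold change of −0.66 (SE 0.14, edgeR adjusted p = 0.00271). This call was lost when similar libraries were merged, at a log2 fold change of −0.65 (SE 0.21, edgeR adjusted p = 0.0520). It was also lost in cells with 3 to 5% Malat1 (edgeR adjusted p = 0.118), in thinned cells (0.0703) and in cells without Xist (0.0515). Lrp8, a receptor for lipoproteins and reelin, was at 27.2 to 52.8 and 25.5 to 32.8 CPM, which overlap, with a log2 fold change of −0.49 (SE 0.20, edgeR adjusted p = 0.0622).

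Cyp46a1, the neuronal hydroxylase that turns cholesterol into a form able to leave the brain, ranged from 5.05 to 32.9 CPM with a median of 15.1 in uninjured samples and was at 10.5, 11.2 and 9.53 CPM in injured samples. Uninjured 1 was the lowest sample of all and uninjured 5 and 6 were the highest, so that the injured samples lay inside the uninjured range. The log2 fold change was −0.87 (SE 0.45, edgeR adjusted p = 0.144, exact permutation p = 0.357). Taken against pairs of uninjured libraries, the difference was 0.39 for uninjured 1 and 2, −0.53 for uninjured 3 and 4, and −1.65 for uninjured 5 and 6, and its direction thus depends on which uninjured libraries are used. Without uninjured 1 it passed the threshold (−1.02, edgeR adjusted p = 0.0392), and without uninjured 5 and 6 it was −0.30 (edgeR adjusted p = 0.363).

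Abca1 rose from near the detection floor. This transporter loads cholesterol and phospholipid onto apolipoproteins, and its gene (ENSMUSG00000015243.6) lies on the reverse strand of chr4:53030787-53159900 in GRCm39. Abca1 ranged from 0.227 to 2.76 CPM with a median of 1.18 in uninjured samples and was at 39.2, 43.8 and 32.5 CPM in injured samples. The uninjured values rest on 2, 6, 24, 67, 3 and 1 UMIs in uninjured 1 to 6, and the injured ones on 224, 195 and 242. The lowest injured sample was 11.8 times the highest uninjured one. Abca1 rose by 4.55 on the log2 scale (SE 0.36, edgeR adjusted p = 1.81e-06). Its injured level decided that it was tested, so this p-value is not separate support for the rise. With 3 uninjured samples at 3 UMIs or fewer, its size is uncertain, and it ranged from 4.08 to 6.35 over the settings, the highest among cells without markers of another class. Against the pairs of uninjured libraries the difference was 4.95, 4.08 and 6.36.

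The stretch upstream of Abca1 is shown because this gene rose most. It covers the 250 bases before the RefSeq start on the reverse strand of chr4:53159896-53160145 in GRCm38.p6, with the same motifs in capitals.
Abca1: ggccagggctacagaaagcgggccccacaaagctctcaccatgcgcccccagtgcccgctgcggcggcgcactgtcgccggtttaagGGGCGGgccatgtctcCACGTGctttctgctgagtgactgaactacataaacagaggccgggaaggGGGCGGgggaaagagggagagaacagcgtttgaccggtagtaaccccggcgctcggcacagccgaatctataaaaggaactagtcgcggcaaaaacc
The window holds an E-box and GC boxes, and no match of the sterol element or the CCAAT box.

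Because Abca1 is also expressed by microglia and other glia, the cells that carried it were examined for markers. At least 3 RGC markers were found in all cells, with or without Abca1, which the selection of cells by RGC markers largely fixed. At least 3 of 8 microglia markers were found in no injured cell of either kind. At least 3 of 7 Müller glia markers were found in 22 of 386 injured cells with an Abca1 UMI, in which cells shared by injured 3 and 4 count in both. In injured 1 to 4 these were 4.76%, 11.8%, 4.69% and 3.06% of cells with Abca1, compared with 1.97%, 3.55%, 2.26% and 0.804% of cells without it, and in uninjured 4 they were 35.3% of 34 cells, compared with 8.91%. Cells with Abca1 were also deeper, with library medians of 15257.5 to 21639 UMIs in injured libraries, compared with 10687 to 13670 UMIs. The markers therefore do not settle in which cells the Abca1 transcripts were made. Summed microglia markers were at 9.92 ± 5.25 CPM (SD, n = 6) in uninjured and 14.1 ± 6.04 CPM (SD, n = 3) in injured samples, and only 2 of the 8 had enough counts to be tested, of which 1 passed the threshold, as higher. This was Cx3cr1, the most abundant in injured samples, which went from 3.39 to 9.66 CPM (log2 fold change 1.36, edgeR adjusted p = 0.0230) with overlapping samples, whereas P2ry12, the most abundant in uninjured samples, went from 4.94 to 2.48 CPM (log2 fold change −1.08, edgeR adjusted p = 0.0780). Summed Müller glia markers, led by Dkk3 in uninjured and by Glul in injured samples, were at 137 ± 22.6 CPM and 122 ± 14.5 CPM. Of the 5 that could be tested, 3 were past the threshold as higher and 1 as lower. The gene that fell was Dkk3 itself (87.7 to 15.6 CPM), whereas Glul and Rlbp1 rose by 0.91 and 2.13 on the log2 scale. Sox9, the other one higher, was at 0.602 CPM or less in every uninjured sample and at 13.0 CPM on average after injury. Its injured level decided that it was tested, and the size of its rise is uncertain. Aqp4 and Car14 had too few counts for a test, and went from 0.905 to 0.0584 CPM and from 0.149 to 0.0448 CPM. The 9 RGC markers summed to 7404 ± 975 CPM in uninjured samples, led by Sncg, and to 5281 ± 540.5 CPM in injured samples, led by Tubb3. Past the threshold, 6 were lower and 1 was higher. Of 7 other classes, summed markers went from 123 to 105 CPM for amacrine cells, from 13.2 to 18.3 for oligodendrocytes, from 11.7 to 6.50 for astrocytes, from 8.43 to 19.3 for 7 rod markers, from 6.24 to 4.64 for endothelial cells, from 3.48 to 0.549 for bipolar cells and from 1.75 to 0.476 for cones. Not all of these markers had enough counts for a test, which was made for 6 of amacrine cells (1 higher), 3 of rods (1 higher), 2 of astrocytes and 2 of oligodendrocytes (none past the threshold), 1 of endothelial cells (lower), and none of bipolar cells and cones, whose sums are untested. The rod marker that passed, Pde6b, was at 0.552 CPM or less in every uninjured sample, so its injured level decided that it was tested. Their part in the levels of the sterol genes was not tested.

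The share of cells with a UMI was compared as well. In cells thinned to 8000 UMIs, 21 of the 29 genes had a lower and 2 a higher share of positive cells in every injured sample than in any uninjured sample (72.4% and 6.90%, against 19.1% and 14.5% of all 14234 genes). The samples of Abcg1 were apart in CPM and overlapped in these shares, whereas those of Ebp and Lrp8 overlapped in CPM and were apart in these shares, with the injured samples below. Idi1 was found in 63.2% ± 7.60 (SD, n = 6) of uninjured and 9.39% ± 1.35 (SD, n = 3) of injured cells, and without thinning in 89.6% and 17.2%. Srebf2 went from 58.2% ± 5.73 to 25.4% ± 1.71, and without thinning from 91.8% to 40.4%. Insig2 went from 44.5% ± 3.54 to 60.5% ± 4.29, whereas without thinning its shares were 81.4% and 77.2% and overlapped, at the unequal depths given above. Sqle was found in 40.8% ± 4.36 and 36.6% ± 7.15 of cells, which overlap.

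Abca1 went from 0.478% ± 0.547 (SD, n = 6) of uninjured to 15.7% ± 0.895 (SD, n = 3) of injured cells, and without thinning from 2.79% to 25.1%.

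**Figure D4:**
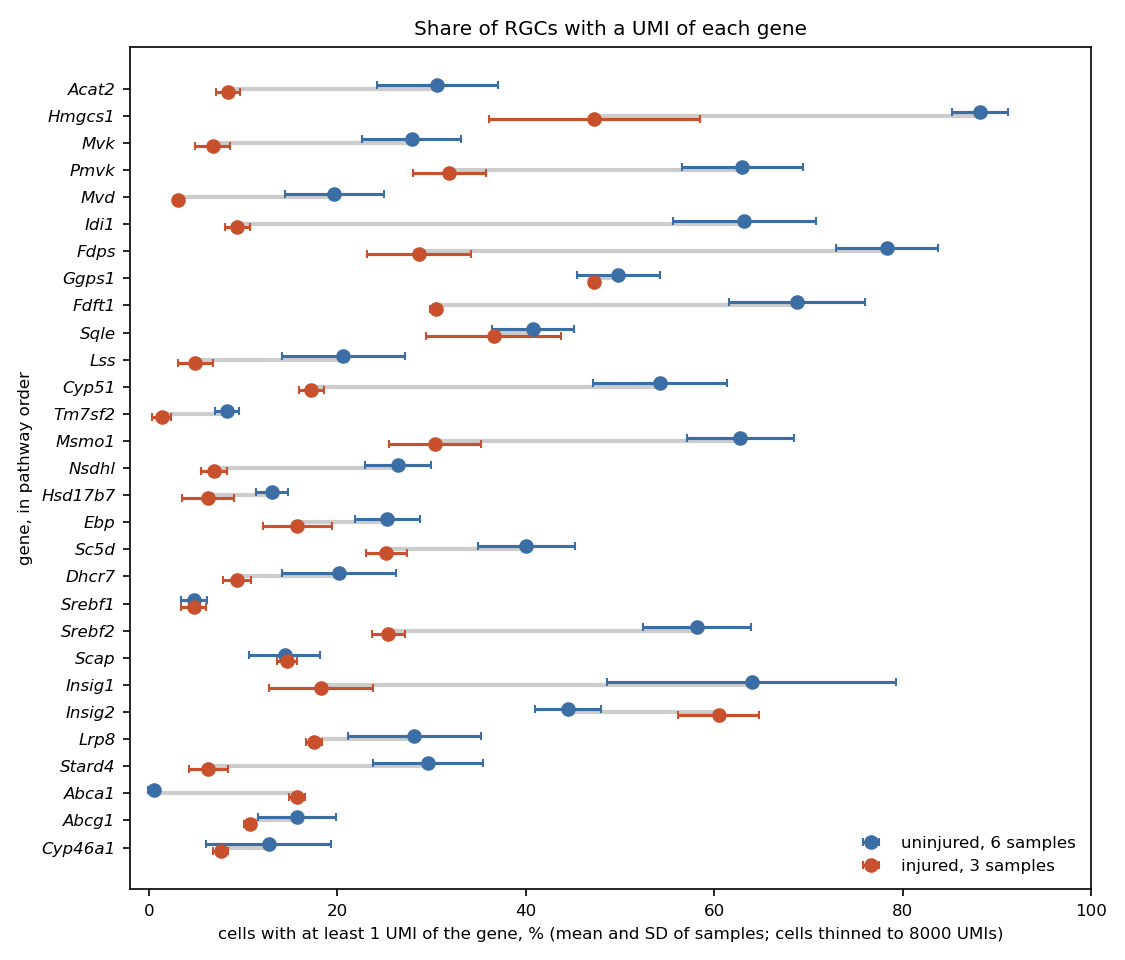
Share of cells with at least 1 UMI of each of the 29 genes after thinning to 8000 UMIs per cell, as the mean of 6 uninjured (blue) and 3 injured (red) samples with SD bars. Idi1 falls from 63.2% to 9.39% of cells, Insig2 rises from 44.5% to 60.5%, and Ggps1, Sqle, Srebf1 and Scap have close or overlapping shares.

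Further genes of the pathway were examined in 5 lists. Of 62 genes tested, 15 were higher and 20 lower (24.2% and 32.3%, against 21.3% and 22.7% of all genes), with a median log2 fold change of −0.24. The 11 fatty acid genes, many of them targets of SREBP1, had 10 lower (90.9%) and 1 higher and a median of −1.12. Scd1, the stearoyl-CoA desaturase, went from 13.9 ± 1.89 to 1.36 ± 0.650 CPM (SD, n = 6 and 3), a log2 fold change of −3.33 (edgeR adjusted p = 1.92e-06). Fads2, which desaturates polyunsaturated fatty acids, went from 39.4 ± 4.37 to 8.86 ± 1.00 CPM, a log2 fold change of −2.15 (edgeR adjusted p = 7.15e-07). Acly, which supplies cytosolic acetyl-CoA, was the gene of this list that rose, with a log2 fold change of 0.53 (edgeR adjusted p = 0.0162).

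The machinery that processes SREBPs and degrades sterol-regulated proteins went the other way, with 7 of 12 genes higher (58.3%, against 21.3% of all genes), 1 lower and a median log2 fold change of 0.46. Erlin1, which takes part in this degradation in the endoplasmic reticulum, rose by 1.19 on the log2 scale (edgeR adjusted p = 5.42e-05). Spring1, a cofactor of the protease that cleaves SREBPs, rose by 0.98 (edgeR adjusted p = 0.00555), although its samples overlap. Rnf145, a ubiquitin ligase, fell by 0.55 (edgeR adjusted p = 0.0155), again with overlapping samples. In the prenyl branch, which uses isoprenoids for proteins, dolichol and ubiquinone, 2 of 13 genes were higher (15.4%) and none was lower, with a median of 0.07. These were Fntb (0.99, edgeR adjusted p = 8.08e-05), a subunit of the farnesyltransferase, and Pdss1 (0.39, edgeR adjusted p = 0.0289), which makes the side chain of ubiquinone.

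Of 19 tested genes of sterol uptake, transport, storage and oxysterols, 4 were higher and 5 lower (21.1% and 26.3%), close to the shares of all genes, with a median log2 fold change of −0.25. Tmem97, a sterol-regulated membrane protein, fell by 2.62 on the log2 scale (edgeR adjusted p = 9.51e-06). Gramd1c, of a family of sterol carriers at membrane contacts, fell by 1.68 (edgeR adjusted p = 2.20e-04). Npc2, which handles cholesterol in the lysosome, rose by 0.93 (edgeR adjusted p = 0.00157), and the endocytic receptor Lrp1 by 0.60 (edgeR adjusted p = 0.00178). Nr1h3, Ch25h and Cyp27a1 had too few counts to be tested. Among 7 tested enzymes and electron donors that act on the same steps as the group, 4 were lower (57.1%) and 1 higher (14.3%), with a median of −0.60, and Idi2 had too few counts. Por, the reductase that feeds electrons to Cyp51 and Sqle, rose by 0.78 (edgeR adjusted p = 0.0112), whereas Pgrmc1 fell by 0.72 (edgeR adjusted p = 0.00667) and Cyb5r3 by 0.72 (edgeR adjusted p = 0.0438).

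**Figure D5:**
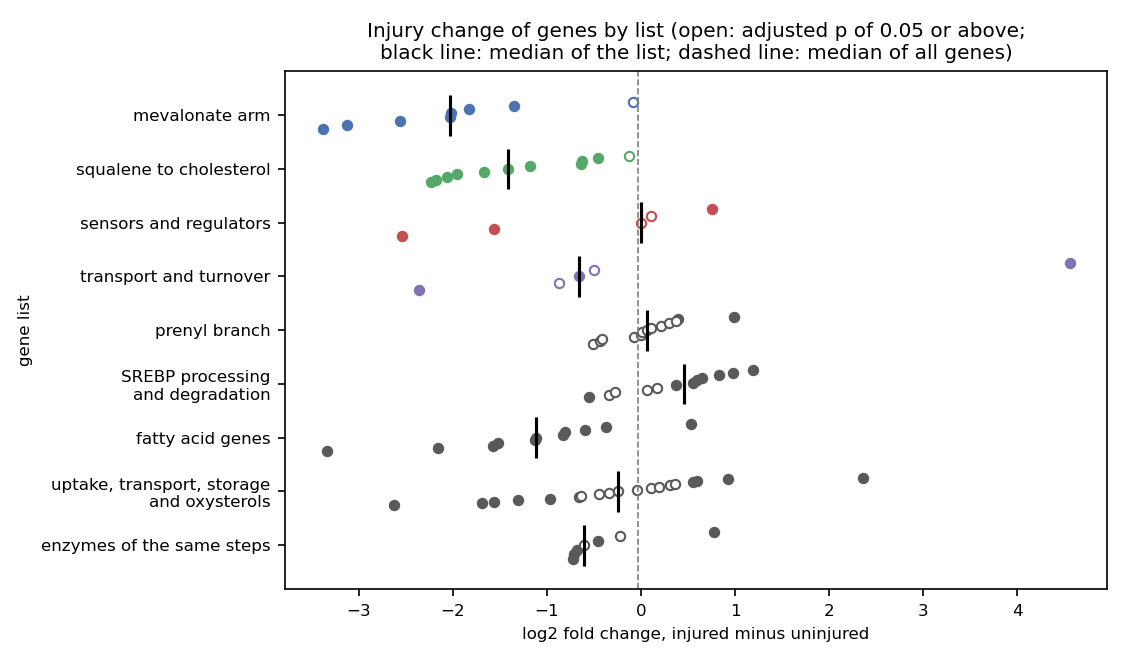
Log2 fold change of each gene (injured minus uninjured) in the 4 roles of the 29 genes and in 5 further lists, with open circles for an adjusted p of 0.05 or above, a black line for the median of the list and a dashed line for the median of all genes (−0.03). The medians of the mevalonate arm (−2.03), of the squalene to cholesterol enzymes (−1.41) and of the fatty acid genes (−1.12) lie lowest, and that of SREBP processing and degradation (0.46) lies highest.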

How the data were processed

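The authors aligned reads to mm39 with Cell Ranger (7.0.1 in the submitters' processing notes; the paper names another version and kit), kept the cells they took for RGCs, and deposited the UMI counts of each cell as raw values. The files hold 1609 injured cells, 1188 of them distinct by barcode, and the paper gives a number between these. All deposited cells met the paper's limits (500 genes or more, no more than 20% of UMIs from mitochondrial genes, no more than 150000 UMIs). Doublets were not called again, since this limit on UMIs was set to reduce them, and a setting without cells that carry 3 or more markers of another retinal class was run. mCherry, a reporter counted in the files, was used in no comparison. A check of free RNA in the cells is not reported here, so shares of cells with a UMI are not set against a background.

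Counts were summed per library (Python 3.11.15, numpy 2.4.6, scipy 1.17.1, pandas 2.3.3), injured 3 and 4 were averaged and rounded, and edgeR 4.0.16 in R 4.3.3 was run on the 14234 genes that passed filterByExpr (TMM, robust quasi-likelihood, condition as the only term, Benjamini-Hochberg over all genes tested, threshold 0.05). This test was tested on simulated data. The difference in mean log2 CPM (prior count 0.5) of single genes had an exact permutation test, two-sided. Cells were thinned to 8000 UMIs once, with a fixed seed. Every one of the 29 genes is named, with the values of each sample for the 12 with the lowest adjusted p and for Srebf1, Srebf2, Insig1, Insig2, Cyp46a1 and Sqle. From each further list, the 2 largest rises and 2 largest falls at most are named, if past the threshold and with a mean log2 CPM of 3 or more. The members and lists were chosen with earlier results of these data known, so no test was made over a list.

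Positions come from GENCODE M39 (GRCm39), near copies (at least 95% identity over 200 bases) from blastn 2.17.0 with the canonical transcripts, and promoters from RefSeq (GRCm38.p6). The 29 alternative settings covered DESeq2 1.42.0, limma-voom (limma 3.58.1), library totals, upper-quartile factors, no filter, at least 10 counts in every sample, other choices of libraries, cells or genes, the replicate number as a block, and each library left out in turn. Cells without Xist and the omission of uninjured 5 and 6 were chosen after seeing the data. Figures were drawn with matplotlib 3.10.9.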

Additional observations from a re-analysis of the deposited data

Results flagged for a closer look

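A sample far from the others was found in the uninjured samples of 2 of the 29 genes, where the gap to the nearest sample divided by the range was above Dixon's critical value for 95% confidence. Chance flags about 1 in 20 groups. Hmgcs1 was at 420.0 CPM in uninjured 2, the highest of the 6 uninjured samples, and its fall after injury was past the threshold in every setting. Scap was at 14.3 CPM in the same library, the lowest of the 6.

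UMIs of the reporter mCherry, which the labels do not mention for these samples, were present in 7.99%, 15.0%, 86.0% and 84.3% of the cells of injured 1 to 4, and in 0 cells of the uninjured libraries. Whether the injured retinas had received a vector is not known.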

How the results depend on the processing

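Of the 29 genes, 19 were past the threshold with the same direction in every setting in which they were tested, 17 lower and 2 higher, and Ggps1, Sqle, Srebf1 and Scap were past it in none. Abca1 was not tested with at least 10 counts in every sample, so that 1 gene was higher there. Over the settings, 17 to 22 genes were lower and 1 to 2 higher, and 3528 to 8307 of all genes passed. Leaving out each library in turn gave 20 to 21 lower, 2 higher and 4961 to 6420 genes in all. Cells with 3 to 5% Malat1 gave 3528 genes in all, with 7 and 8 cells left in uninjured 5 and 6.

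The call of Ebp was lost in 12 settings, those of Abcg1, Hsd17b7 and Sc5d in 4, 3 and 2, each of these calls also when similar libraries were merged, whereas Lrp8 passed in 10. The log2 fold change of Srebf1 was −0.046 with upper-quartile factors, −0.058 with library totals, −0.093 with limma-voom, -1e-04 without a filter, −0.0066 with at least 10 counts in every sample, −0.34 with injured 3 and 4 left out, −0.10 without cells carrying markers of another class, −0.056 with at least 1% ribosomal protein UMIs, −0.035 to 0.16 with a library left out, 0.35 and 0.29 with and without the replicate block, and 0.44, the highest, in cells with 3 to 5% Malat1. Scap ranged from −0.062 to 0.24 with a library left out, and Cyp46a1 was 0.064 in cells with 3 to 5% Malat1. The cause of these shifts was not tested.

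With the replicate number as a block (replicate block, libraries 1 to 4 of each condition), 22 genes were lower, 2 higher and 8307 of all genes passed, against 22, 2 and 8230 without the block, and Sqle was at 0.012 and 0.0042. Both of these settings count injured 3 and 4 as separate samples, although they share 421 cell barcodes, so their counts rest on more samples than are distinct. Deviations of same-numbered libraries correlated by −0.05 to 0.02, so the numbers do not pair the samples. Without thinning, at unequal depth, 26 genes instead of 21 had a lower share of positive cells and 1 instead of 2 a higher one, because Insig2 overlapped. The shorter sterol element was matched in promoters of 6 genes, the core in 1.

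Depth limits Abca1 in uninjured samples (103 UMIs in all), and Mvd, Tm7sf2 and Srebf1 in injured samples. Pooled retinas and libraries that resemble each other limit what the 6 and 3 samples stand for.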
